A study of Mus musculus with 3 samples.

Results

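The cytosolic ribosomal protein genes are described here in dissociated cells from the arcuate nucleus of mice. Members were taken by gene symbol: names starting with Rpl or Rps followed by a digit, Rplp0 to Rplp2, and Rpsa, without names marked as pseudogenes and without the ribosomal S6 kinases. The rule found 87 of the 31253 genes listed in the matrices, 52 named for the large subunit (Rpl) and 35 for the small subunit (Rps). No expression value entered the choice.

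Ribosomal proteins bind the ribosomal RNAs to form the small subunit, which reads the mRNA, and the large subunit, which joins amino acids. Their mRNAs belong to the most abundant in growing cells, and many start with a 5′ terminal oligopyrimidine (TOP) tract, through which growth signalling by mTOR controls their translation as a group. Several members have a paralog that can take the same place in the ribosome, and the mouse genome holds many processed copies of these genes.

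The study compared the arcuate nucleus, a hypothalamic centre of energy balance, of male C57BL/6JRj mice aged 5 to 6 weeks. The SC mice received standard chow for 15 days from weaning. The 5-day HFHS mice were changed after 10 days of chow to a diet rich in fat and sugar (HFHS) for 5 days, and the 15-day HFHS mice ate the HFHS diet for all 15 days. Each diet is 1 library of cells pooled from 6 mice and made with a 3′ droplet kit (10x Genomics), so a difference between diets is a difference between libraries, with no replicate and no test. Values are counts of unique molecular identifiers (UMIs), and CPM means UMIs scaled to 1000000 UMIs of the same cells.

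After filters, 4845, 4045 and 5181 cells remained in the SC, 5-day HFHS and 15-day HFHS libraries, with a median of 5156, 5783 and 4132 UMIs per cell. Cells were clustered without the 87 genes and without mitochondrial and hemoglobin genes, and 10 classes with at least 100 cells in every library were named from marker genes and are called "-like" for that reason. Each class had its own marker list higher than any other class did, for example 41065 to 44983 CPM for 10 microglial markers in microglia-like cells and at most 219 CPM in the other 9 classes. The clusters were named from these same lists, so this is no independent check of the names. Committed precursor or new oligodendrocyte-like cells had 6681 to 7874 CPM of their own list and 13161 to 20931 CPM of the markers of mature oligodendrocytes. The 524 cells of clusters without a clear name were left out of the classes. Of 23 named clusters, 3 had no marker of their type among their 10 leading genes: 1 astrocyte-like, 1 ependymal-like and 1 tanycyte-like cluster, the last led by genes such as Dnah12 and Dnah11, which encode dynein chains of cilia. Summed erythrocyte markers (6 genes) differed between libraries, in directions that depended on the class. Endothelial-like cells had 21475 CPM in SC, 25514 CPM in 5-day HFHS and 5622 CPM in 15-day HFHS. Astrocyte-like cells had 76.1, 2549 and 2047 CPM in the same order, oligodendrocyte-like cells 27.9, 1688 and 1143 CPM, and committed precursor or new oligodendrocyte-like cells 27.0, 2383 and 752 CPM. Oligodendrocyte precursor-like cells had 67.6, 3937 and 84.9 CPM, and the part of these markers in the diet results was not tested. Between the 15-day and SC libraries 22 barcodes of kept cells were shared, between the 15-day and 5-day libraries 24, and between the 5-day and SC libraries 2.

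The coding sequences below are of the small-subunit gene Rps27, its paralog Rps27l and the large-subunit gene Rpl41, which later results turn on. They lie on the GRCm38 build at chr3:90212725-90213615 on the minus strand, chr9:66946175-66949357 on the plus strand and chr10:128548387-128548960 on the minus strand, introns included. Capitals in Rps27l mark the 61 of 255 bases that differ from Rps27.
Rps27: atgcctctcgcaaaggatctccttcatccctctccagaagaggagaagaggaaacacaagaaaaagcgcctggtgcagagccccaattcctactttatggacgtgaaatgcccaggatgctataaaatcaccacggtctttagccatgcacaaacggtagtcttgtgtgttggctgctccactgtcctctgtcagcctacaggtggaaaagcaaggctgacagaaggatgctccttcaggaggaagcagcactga
Rps27l: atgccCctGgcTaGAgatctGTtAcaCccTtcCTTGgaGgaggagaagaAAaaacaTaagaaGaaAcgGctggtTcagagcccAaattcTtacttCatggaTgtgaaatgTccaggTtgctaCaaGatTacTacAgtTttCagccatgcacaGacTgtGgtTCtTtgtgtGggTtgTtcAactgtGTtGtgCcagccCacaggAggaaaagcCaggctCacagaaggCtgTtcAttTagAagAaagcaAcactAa
Rpl41: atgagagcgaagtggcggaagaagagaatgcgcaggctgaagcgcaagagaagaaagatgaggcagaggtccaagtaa
The retrogene Rps27rt on chromosome 9 has the same 255 coding bases as Rps27. The gene Gm10076 on chromosome 14 holds all 78 coding bases of Rpl41. Reads over those bases cannot be told apart between a gene and its copy, and over the last 500 bases Rps27 shares 49.8% and Rpl41 42.7% of 31-base words with another listed gene. As ambiguous were marked 9 members: 6 with over 50% of such words shared, and 3 (Rps10, Rpl36al and Rpl13a) that overlap another gene on the same strand. These 9 hold 5.57% of the group's UMIs.

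A TOP tract needs its pyrimidines at the very start of the mRNA. The 30 bases around the annotated start of 4 members are shown here from RefSeq (GRCm38.p6), with a C followed by at least 4 pyrimidines in capitals where one begins within 10 bases of the start. Rps27 and Rpl35 are shown because they were higher in every class of the 15-day library, Rpl22l1 because it departed from the group, and Rpl41 because it holds no such tract.
Rps27: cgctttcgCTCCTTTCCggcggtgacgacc
Rpl35: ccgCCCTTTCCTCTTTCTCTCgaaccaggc
Rpl22l1: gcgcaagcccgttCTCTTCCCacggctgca
Rpl41: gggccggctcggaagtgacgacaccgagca
These windows lie at chr3:90213629-90213658 (minus strand), chr2:39005112-39005141 (minus strand), chr3:28805498-28805527 (plus strand) and chr10:128549149-128549178 (minus strand). Searched on the gene's own strand, such a tract was found for 41 of the 67 members with a promoter sequence (61.2%) and for 7007 of 19901 other genes (35.2%). It was also found for 31 of 69 mitochondrial ribosomal protein genes (44.9%), so the letters alone do not mark a TOP mRNA.

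Nearly all members were highly counted, at levels that differed widely between them. Rps29, a small zinc-binding protein of the small subunit, was first, with 2005 CPM in SC, 2258 CPM in 5-day HFHS and 3412 CPM in 15-day HFHS cells, and made up 3.23% of the group. Rpl41, Rplp1 and Rps21 were also among the first 5, and the first 5 members together held 13.3% of the group's UMIs. The first 40 held 66.8%. Over 10000 UMIs were counted for 80 members, which hold 99.8% of the group and run between 317509 UMIs (Rps29) and 16555 UMIs (Rpl13a), a 19.2-fold span.

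At the other end were paralogs and genes that share only the name. Rps27rt had 64.9, 66.7 and 48.5 CPM in SC, 5-day HFHS and 15-day HFHS cells. Rps19bp1, which encodes a binding partner of Rps19 and no ribosomal protein, had 43.3, 44.2 and 49.3 CPM in the same libraries. Both stood more than an order of magnitude below Rps29 in every library. Rpl39l, the paralog of Rpl39 known from testis, had 22, 26 and 28 UMIs in SC, 5-day HFHS and 15-day HFHS cells, and 12, 11 and 22 of these were in microglia-like cells. Rpl3l, known from skeletal muscle and heart, had 3, 6 and 6 UMIs, and the retrogene Rps23rg1 had 3, 5 and 7. Rpl10l, a testis paralog of Rpl10, had 0 UMIs in every library, where a count of 0 allows up to 3 as a one-sided 95% limit.

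**Figure D1:**
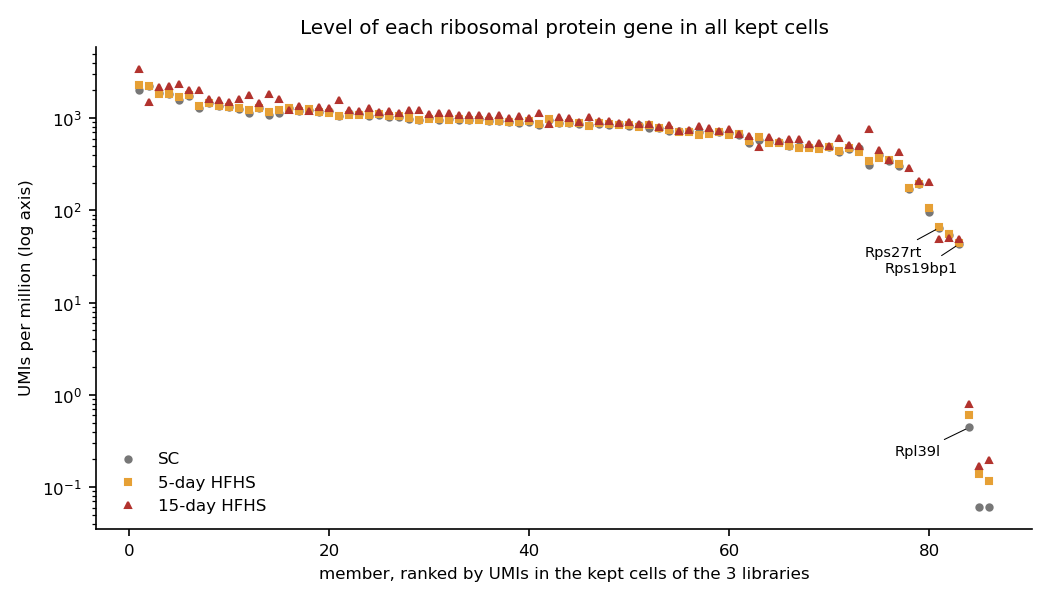
CPM in all kept cells (log axis) for each member with at least 1 UMI, ranked by UMIs summed over the 3 libraries (gray circle SC, orange square 5-day HFHS, red triangle 15-day HFHS). The first 80 members decline steadily over a 19.2-fold span of UMIs, and Rpl39l, Rpl3l and Rps23rg1 lie below 1 CPM.

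The group's share of all UMIs differed more between cell classes than between libraries. It was 7.30% in SC, 7.39% in 5-day HFHS and 8.58% in 15-day HFHS cells, with exact 95% counting intervals of 7.30 to 7.31%, 7.38 to 7.39% and 8.57 to 8.59%. Between classes, the highest share was 7.68, 7.27 and 7.45 times the lowest in the SC, 5-day HFHS and 15-day HFHS libraries. With cells classed one by one from their markers, the highest mean share was 3.68 times the lowest. These intervals, and all others here, cover counting error only.

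Microglia-like cells, the resident immune cells of the brain, had the highest share: 14.5% in SC, 14.1% in 5-day HFHS and 17.1% in 15-day HFHS. Endothelial-like cells of the vessel wall came next, with 10.6%, 10.4% and 12.0% in the same order of libraries. Astrocyte-like cells had the lowest, with 1.89%, 1.95% and 2.29%, and oligodendrocyte-like cells, which make myelin, had 4.08%, 4.11% and 4.38%. The first and second and the last 3 places were held by the same classes in all 3 libraries, the eighth by committed precursor or new oligodendrocyte-like cells.

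From the third place to the eighth, neighbouring classes had ranges over the 3 libraries that overlapped. Tanycyte-like cells, the glia of the ventricle floor, had 8.39 ± 0.42% (mean ± SD, n = 3 libraries of different diets). Their cluster led by Dnah12 had 7.40% in SC, 7.35% in 5-day HFHS and 7.32% in 15-day HFHS, below the other pair of clusters in each library. Ependymal-like cells, the ciliated lining, had 6.98 ± 0.077%, the narrowest spread. Oligodendrocyte precursor-like cells had 6.31 ± 0.70%, pericyte-like cells 5.93 ± 0.56% and committed precursor or new oligodendrocyte-like cells 5.35 ± 0.72%. Neuron-like cells had the widest spread, with 5.16% in SC, 8.61% in 5-day HFHS and 8.97% in 15-day HFHS.

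**Figure D2:**
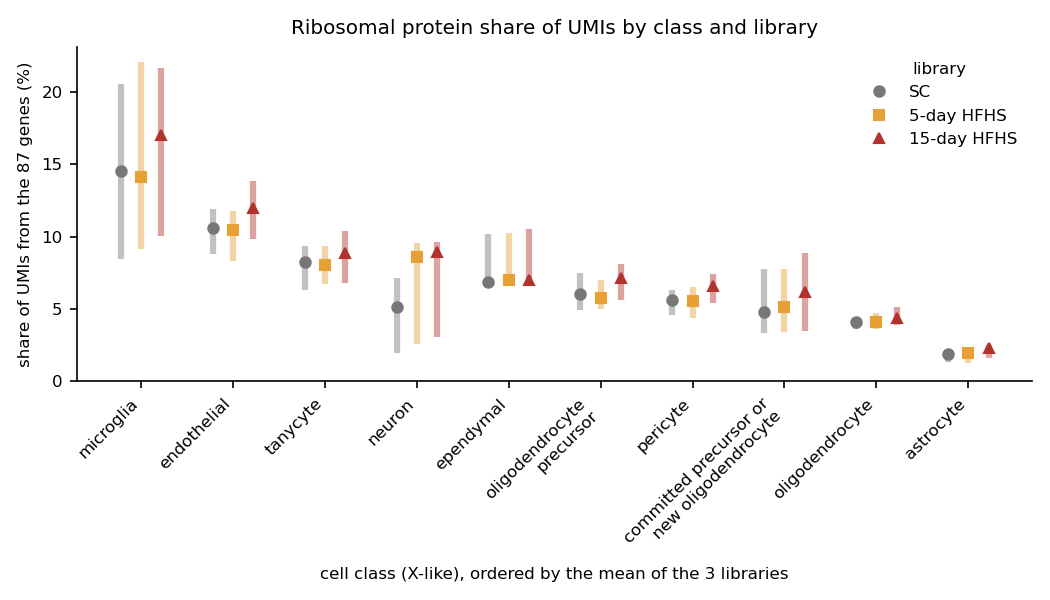
Share of UMIs from the 87 genes (%) in 10 cell classes, ordered by the mean of the 3 libraries, with points for the summed UMIs of a class and library and bars from the first to the third quartile of single cells. Microglia-like cells lie highest and astrocyte-like cells lowest in each library, and the 3 libraries differ most in neuron-like cells.

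Depth and cell state moved with the share inside classes. Ependymal-like cells held a deep cluster (median 16631, 18922 and 9627 UMIs per cell in SC, 5-day HFHS and 15-day HFHS) with 6.18%, 6.53% and 6.42%, and a shallow cluster (1722, 1724 and 1283 UMIs) with 9.70%, 9.65% and 10.5%. Microglia-like cells likewise held a deep cluster with 13.3%, 12.7% and 16.4% and a shallow one with 23.0%, 22.7% and 27.0%. In both classes the shallow cluster was higher in every library. Over all 30 class and library groups, the third of cells with most UMIs had a lower share than the third with fewest in 21 and a higher one in 9. Barcodes with over 20% mitochondrial UMIs, which the filters removed, had 2.11% in SC, 2.22% in 5-day HFHS and 2.86% in 15-day HFHS. Kept cells were split by mitochondrial percentage in the same way as by UMIs. Those with the highest percentage had a higher share than those with the lowest in 18 of 30 groups and a lower share in 12. The direction depended on the class. Neuron-like cells with the lowest percentage had 7.77% in SC, 12.5% in 5-day HFHS and 10.9% in 15-day HFHS. Those with the highest had 2.35%, 2.42% and 3.30%. Ependymal-like cells were likewise lower in every library. Microglia-like, oligodendrocyte-like, endothelial-like and pericyte-like cells were higher in every library, and the remaining classes were mixed. With cells classed one by one from their markers, astrocyte-like cells had 4.09% as the mean of the libraries, against 2.04 ± 0.22% from clusters, though they stayed lowest. Under thinning of cells to 1000 UMIs the 2 highest and the 2 lowest classes kept their places. Thinning leaves the expected share of each cell as it was, so it cannot test depth. The part of depth in these class differences was not tested.

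The members moved together from class to class, with few exceptions. On the CPM scale, 94 of 827 member and class pairs (11.4%) lay at least 2-fold below the mean of the classes in all 3 libraries and 40 (4.84%) lay at least 2-fold above, against 25.8% and 6.98% of all gene and class pairs. At least 1 such class was found for 81 of 83 measured members (97.6%), against 65.3% of all genes. To remove the level of the whole group, each member's share of the group's UMIs in a class was set against the mean of that share over the 10 classes. On that scale only 2 pairs lay at least 2-fold above and 7 at least 2-fold below in all 3 libraries, and 54 of 83 members stayed within 1.5-fold in every class and library. The 9 pairs belonged to 5 members: Rpl13, Rpl22l1, Rplp0, Rps27l and Rps19bp1.

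Rpl13, a core protein of the large subunit, departed in oligodendrocyte precursor-like cells. It had 5567 CPM in SC, 5796 CPM in 5-day HFHS and 6344 CPM in 15-day HFHS cells of that class, where it made up 9.38 ± 0.55% of the group (mean ± SD, n = 3 libraries). In the other 9 classes it made up 1.89 to 2.41% of the group as a mean of the libraries, so no other class came near. The departure was 1.69, 1.77 and 1.67 on the log2 scale in SC, 5-day HFHS and 15-day HFHS. Both clusters of the class showed it, with 9.31%, 10.1% and 9.04% of the group in the larger one and 8.08%, 8.05% and 5.78% in the smaller one. The next stages of the lineage did not: the committed precursor or new oligodendrocyte-like clusters had 1.65 to 2.41%. Rpl13 lies at chr8:123102350-123105244 on the plus strand.

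Rpl22l1 and its parent gene Rpl22 divided the classes in opposite ways. Rpl22l1 encodes a paralog of Rpl22 that competes for the same place on the large subunit, and its coding sequence has the same base as Rpl22 at 259 of 369 aligned positions. Of the UMIs of both genes together, Rpl22l1 held 78.4%, 80.0% and 79.4% in SC, 5-day HFHS and 15-day HFHS neuron-like cells. In microglia-like cells it held 18.7%, 17.0% and 19.0%. The 2 classes did not overlap, and neither diet library moved either by more than 2 points.

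The other classes lay between: tanycyte-like cells at 62.1 ± 0.91%, astrocyte-like at 54.2 ± 2.7%, ependymal-like at 47.6 ± 0.24%, oligodendrocyte-like at 33.1 ± 1.4% and endothelial-like at 21.2 ± 1.0% (mean ± SD, n = 3 libraries). Over all cells the split was nearly even, with 48.8%, 49.7% and 49.4% in SC, 5-day HFHS and 15-day HFHS. As departures from the group, Rpl22l1 lay 1.08, 1.05 and 1.02 above the mean of the classes in neuron-like cells (log2; SC, 5-day HFHS, 15-day HFHS), at -1.71, -1.87 and -1.76 in microglia-like cells and at -1.29, -1.44 and -1.37 in endothelial-like cells. The neuronal value sat at the threshold: it was below 2-fold when cells were thinned to 1000 UMIs or classed one by one. Rpl22 in neuron-like cells, at -0.99, -1.18 and -1.04, missed the threshold in the SC library alone.

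Rplp0 departed from its partners in the stalk. Rplp0 anchors the stalk of the large subunit, where Rplp1 and Rplp2 bind it and recruit the translation factors. In neuron-like cells Rplp0 had 224, 366 and 328 CPM in SC, 5-day HFHS and 15-day HFHS, and departed by -1.17, -1.20 and -1.25 on the log2 scale. In the same cells Rplp1 departed by -0.09, -0.22 and -0.29 and Rplp2 by -0.07, -0.03 and 0.00. The stalk base was thus further below the group than Rplp1 and Rplp2 in each library, though with cells thinned to 1000 UMIs the departure of Rplp0 missed the threshold. In microglia-like cells Rplp1 stood highest of the stalk genes, at 0.63, 0.66 and 0.56.

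Rpsa, a small-subunit protein also known as the laminin receptor precursor, made no call. Its share of the group was highest in oligodendrocyte-like cells (1.98 ± 0.051%) and committed precursor or new oligodendrocyte-like cells (1.98 ± 0.073%), and lowest in endothelial-like cells (0.915 ± 0.032%, mean ± SD, n = 3 libraries). The SDs of the first pair span the difference between them, and the endothelial values lie apart from both.

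Rps27l, the paralog of Rps27 printed above and a target gene of p53, was low in neuron-like and microglia-like cells. Of the UMIs of Rps27 and Rps27l together, it held 7.03%, 5.98% and 4.58% in SC, 5-day HFHS and 15-day HFHS neuron-like cells, and 8.61%, 7.63% and 5.33% in microglia-like cells. It held 33.5%, 32.0% and 24.9% in oligodendrocyte precursor-like cells and 32.0%, 29.7% and 22.6% in committed precursor or new oligodendrocyte-like cells. The lineage of the oligodendrocyte thus stood above neurons and microglia in every library. The share was lower in 15-day HFHS than in SC in all 10 classes, beside Rps27 counts that were higher there, as given below. As departures from the group Rps27l lay at -1.46, -1.63 and -1.53 in neuron-like cells and at -1.24, -1.44 and -1.44 in microglia-like cells. Rps19bp1 lay at -1.35, -1.71 and -1.64 in microglia-like cells and at -1.11, -1.37 and -1.19 in endothelial-like cells. The endothelial departure missed the threshold against the median of the classes, with thinned cells and with cells classed one by one. Its level in these classes was 33.3 to 43.7 CPM in the 3 libraries, and these classes had the 2 highest shares of the group.

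The remaining paralogs of core members varied less. Rpl7l1, known in other work for ribosome assembly, held 6.99%, 7.27% and 6.37% of the UMIs of Rpl7 and Rpl7l1 together in SC, 5-day HFHS and 15-day HFHS cells, with 16.5 ± 0.075% in astrocyte-like cells at the top and 5.15 ± 0.38% in microglia-like cells at the bottom. Rpl36al, an intronless paralog of Rpl36a with 87.9% of the same coding bases, held 28.8%, 28.4% and 32.1% over all cells. Rpl39l held 0.0424%, 0.0577% and 0.0506% of the UMIs of Rpl39 and Rpl39l. Across the 30 class and library values, the log level of Rpl22l1 had the lowest correlation with the summed other members of 80 members (Pearson r 0.48), before Rps27l (0.56) and Rpl13 (0.72), and Rpl30 had the highest (0.99). These points share libraries and the group's own total, and the values are a description.

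**Figure D3:**
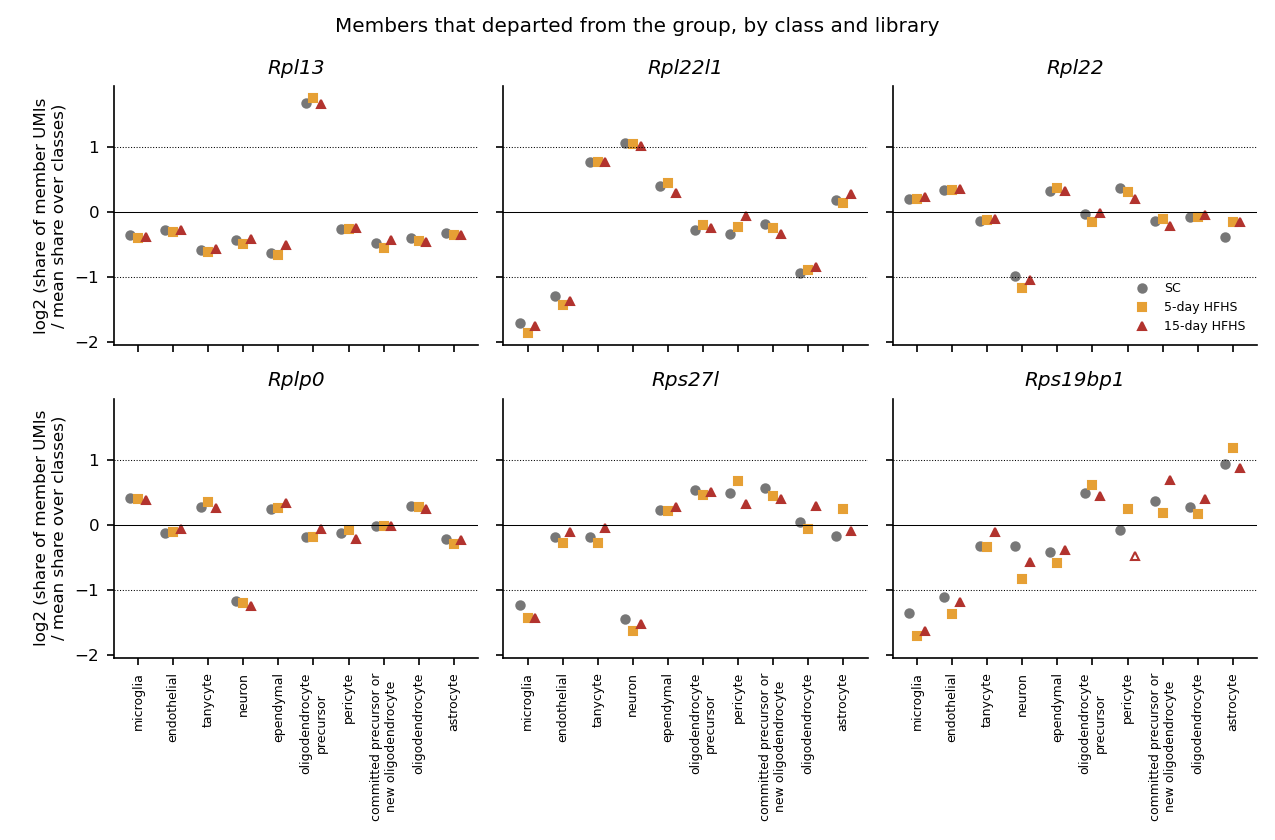
Log2 of a member's share of the group's UMIs in a class over the mean of that share across 10 classes, for 5 members with calls and Rpl22, with 1 point per library (gray circle SC, orange square 5-day HFHS, red triangle 15-day HFHS). Dotted lines mark 2-fold, and an open point rests on fewer than 20 expected UMIs. Rpl13 stands at 1.67 to 1.77 in oligodendrocyte precursor-like cells only, and Rpl22l1 and Rpl22 lie on opposite sides of 0 in neuron-like cells.

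After 5 days of HFHS diet the summed group stayed near its SC level in the classes other than neuron-like cells. It was between 0.962 times (oligodendrocyte precursor-like) and 1.07 times (committed precursor or new oligodendrocyte-like) its SC level in 9 classes. By cluster it was lower in 13 of 21 and higher in 8, and the pair of astrocyte-like clusters lay apart, at 0.806 and 1.13 times the SC level. A member was called higher or lower where the higher of both levels exceeded the lower by at least 25%, with an exact 95% counting interval of the ratio that left out 1 and at least 100 UMIs in both libraries together. Of 743 member and class pairs outside neuron-like cells, 2 were called higher and 1 lower, where 3.05% and 3.8% of all gene and class pairs were called. The higher ones were Rps27l in astrocyte-like cells, with 74.3 CPM in 5-day HFHS and 51.3 CPM in SC, where 5.96% of genes in that class were called higher, and Rpl13a in committed precursor or new oligodendrocyte-like cells, with 87.3 CPM in 5-day HFHS and 65.9 CPM in SC, where 3.66% were. The lower one was Rpl31 in pericyte-like cells, with 206 CPM in 5-day HFHS and 288 CPM in SC, where 4.17% of genes were called lower. With cells thinned to 1000 UMIs, 9 pairs were called higher and 13 lower. In all kept cells no member was called either way, where 3.47% of all genes were called higher and 1.68% lower.

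In neuron-like cells the group had 8.61% of UMIs in 5-day HFHS and 5.16% in SC, a ratio of 1.67. There 82 of 83 measured members were called higher and none lower, where 11.1% of all genes were called higher and 22.4% lower. The mix of neuron-like clusters differed between the libraries beside this. A cluster with Agrp and Npy, peptides of hunger-promoting neurons, gave 61.8% of the class's UMIs in 5-day HFHS and 37.8% in SC. Its share of ribosomal protein UMIs was 12.2% in 5-day HFHS and 9.17% in SC. A second cluster, low in the group, gave 35.9% of the class's UMIs in 5-day HFHS and 59.8% in SC, with a share of 2.44% in 5-day HFHS and 2.42% in SC. The third cluster, with 2.24% of the class's UMIs in 5-day HFHS and 2.48% in SC, went the other way, with a share of 8.90% in 5-day HFHS and 10.3% in SC. The clusters also differed in mitochondrial UMIs. These were 5.41% in 5-day HFHS and 5.06% in SC in the cluster with Agrp and Npy. They were 14.4% and 13.2% in the second cluster and 10.7% and 9.38% in the third. The part of mitochondrial UMIs in the ratio of the class was not tested. With clusters weighted as in SC, the ratio of the group was 1.22 and 22 of 83 members were called higher. Erythrocyte markers summed to 968 CPM in 5-day HFHS and 4427 CPM in SC neuron-like cells. The median log2 ratio over all genes in the class was -0.14. With TMM scaling the ratio of the group was 1.87.

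After 15 days of HFHS diet the group was higher than in SC in all 10 classes, or in 9 with ependymal-like cells at 0.996 when cells were thinned to 1000 UMIs. The ratio of 15-day HFHS to SC was lowest in ependymal-like cells (1.02) and reached 1.08 in tanycyte-like, 1.13 in endothelial-like, 1.17 in microglia-like, 1.21 in astrocyte-like and 1.29 in committed precursor or new oligodendrocyte-like cells. In that last class 11 markers of mature oligodendrocytes summed to 13161 CPM in 15-day HFHS and 19521 CPM in SC, and within its 2 clusters the ratio was 1.24 and 1.30. It was above 1 in 21 of the 23 clusters with a ratio, with a median of 1.16. The exceptions were 1 tanycyte-like cluster (0.989) and 1 oligodendrocyte precursor-like cluster (0.950). Outside neuron-like cells 158 of 743 member and class pairs were called higher, over 45 members, and 19 were called lower, where 5.33% of all gene and class pairs were called higher and 7.64% lower. In all kept cells 16 members were called higher and 2 lower, where 8.57% of all genes were called higher and 9.4% lower. The further 5 called higher, beside the 11 named below, were Rps10 (log2 ratio 0.51), Rpl36 (0.43), Rpl35a (0.38), Rps12 (0.37) and Rpl34 (0.33). Cells of the 15-day library also had fewer UMIs. With cells thinned to 1000 UMIs, 130 pairs outside neuron-like cells were called higher and 21 lower. Thinning cannot test depth, as given above, and the part of depth in these ratios was not tested.

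Outside neuron-like cells, committed precursor or new oligodendrocyte-like cells had most members called higher at 15 days, 37 of 83, where 8.16% of all genes of the class were called higher. The count was 24 in astrocyte-like cells (5.32% of all genes), 19 in oligodendrocyte precursor-like cells (4.12%) and 17 of 79 in pericyte-like cells (5.9%). It was 15 in microglia-like (3.21%), 13 in endothelial-like (5.13%), 12 in tanycyte-like (4.88%), 12 in oligodendrocyte-like (6.24%) and 9 in ependymal-like cells (5.75%). Few members were called lower in any class: 4 in oligodendrocyte-like cells (8.31% of all genes), 3 each in tanycyte-like (6.74%), microglia-like (8.97%) and ependymal-like cells (7.21%), and 2 each in endothelial-like (7.39%), oligodendrocyte precursor-like (9.59%) and pericyte-like cells (9.39%). None was called lower in astrocyte-like cells (4.45%) or committed precursor or new oligodendrocyte-like cells (9.36%). The share of members called higher was above the share of all genes in each class, and the share called lower was below it.

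In neuron-like cells the group had 8.97% of UMIs in 15-day HFHS and 5.16% in SC, a ratio of 1.74. Of 83 members, 80 were called higher and none lower, where 13% of all genes were called higher and 29.7% lower. The cluster with Agrp and Npy gave 68.2% of the class's UMIs in 15-day HFHS and 37.8% in SC. The group's share was higher in each of the 3 clusters: 11.3% in 15-day HFHS and 9.17% in SC in the cluster with Agrp and Npy, 3.50% in 15-day HFHS and 2.42% in SC in the one low in the group, and 10.9% in 15-day HFHS and 10.3% in SC in the third. With clusters weighted as in SC the ratio was 1.29, with 42 members called higher and 2 lower. Erythrocyte markers summed to 117 CPM in 15-day HFHS and 4427 CPM in SC neuron-like cells, and the median log2 ratio over all genes was -0.16.

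The difference at 15 days was uneven over the members. Called higher in 9 or 10 of the 10 classes were 11 members on 8 chromosomes, where 0.537% of 5963 genes measured in at least 7 classes were called higher so widely. At 5 days none of the members and 0% of 6396 genes were. The 11 members were Rpl35, Rpl13a, Rps29, Rps27, Rpl36al, Rpl37a, Rps21, Rpl39, Rpl37, Rpl38 and Rpl36a. Of these, Rpl35, Rpl13a, Rpl36al and Rpl36a are among the ambiguous members. Without the 11, 62 member and class pairs outside neuron-like cells were called higher at 15 days.

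Rpl35, a large-subunit protein near the exit of the peptide tunnel, differed most. In all kept cells it had 309 CPM in SC, 339 CPM in 5-day HFHS and 770 CPM in 15-day HFHS. The 5-day value lay close to SC and the 15-day value apart from both. By class, the log2 ratio of 15-day HFHS to SC ran between 1.02 (astrocyte-like) and 1.82 (neuron-like), with a median of 1.32. In microglia-like cells Rpl35 had 1710 CPM in 15-day HFHS and 699 CPM in SC.

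Rpl13a, known also for silencing mRNAs in interferon-treated macrophages, had 94.9 CPM in SC, 106 CPM in 5-day HFHS and 205 CPM in 15-day HFHS, with a median log2 ratio of 1.09 over 9 classes at 15 days. Rps29 had a median of 0.74 and Rps27 of 0.72. The other 7 had medians between 0.49 (Rpl36a) and 0.69 (Rpl36al). Summed, the 11 members made up 1.03% of UMIs in SC, 1.10% in 5-day HFHS and 1.64% in 15-day HFHS. The other 76 members made up 6.28%, 6.28% and 6.94% in the same libraries. The log2 ratio of 15-day HFHS to SC was thus 0.67 for the 11 and 0.15 for the 76. By class, the 76 ran between -0.06 in ependymal-like and 0.72 in neuron-like cells.

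Members called lower at 15 days were fewer. Rpl41, the short basic protein printed above, was called lower in 6 classes (median log2 ratio -0.42 over 10 classes). Rps28, near the mRNA exit of the small subunit, was called lower in 5 classes (median -0.35) and Rps27rt in 5 (median -0.45 over 9 classes). Among all genes measured in at least 7 classes, 1.93% were called lower in at least 5. At 5 days no member was called lower in as many classes, where 0.0469% of genes were. Rpl7l1 was called lower in 2 classes and Rpl7a in 1. In neuron-like cells Rpl41 and Rps27rt made no call, with log2 ratios of 0.03 and -0.02.

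**Figure D4:**
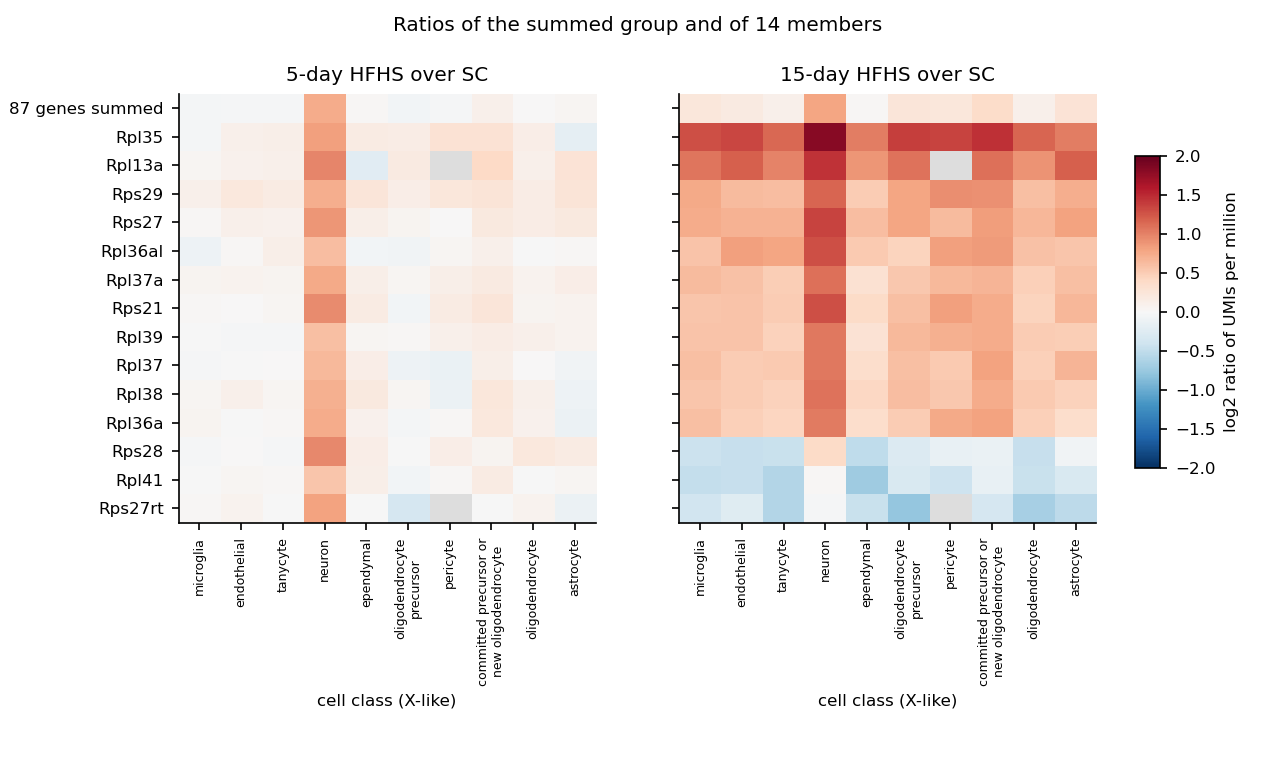
Log2 ratio of CPM, 5-day HFHS over SC (left) and 15-day HFHS over SC (right), by class for the summed group, the 11 members called higher in 9 or 10 classes and 3 members called lower in at least 5 classes at 15 days. Gray marks pairs under 100 UMIs. The left panel is near 0 except in neuron-like cells, and the right panel has 11 members above 0 in every measured class.

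Among members under 2000 bases, shorter annotated transcripts had higher 15-day ratios. In all kept cells the median log2 ratio of 15-day HFHS to SC was 0.37 for 15 members under 500 bases, 0.17 for 53 members of 500 to 1000 bases and 0.10 for 13 members of 1000 to 2000 bases. The 2 members of 2000 to 4000 bases had a median of 0.15, above the bin before it. For other genes with at least 1000 UMIs the medians were 0.02, -0.03 and -0.07 in the first 3 bins, with -0.05 for 2000 to 4000 bases and -0.04 above that. At 5 days the member medians were 0.04, 0.01, 0.01 and -0.02. The shortest bin had the highest median in both comparisons.

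Some copies of member genes differed from their parent genes in direction at 15 days, and others did not. Over 8 pairs of a member and a listed gene that shares its sequence, the medians over classes of the log2 ratio of 15-day HFHS to SC had opposite signs in 5 and the same sign in 3. Rplp2 (0.27) and Wdr89 (0.34) were both higher in all 10 classes, Rpl10 (-0.13) and Rpl10-ps3 (-0.61) were both lower in most, and Rpl9 (-0.01) and Rpl9-ps6 (-0.02) lay near 0. Rpl36a (0.49) and Rpl36a-ps1 (-0.81) had opposite signs, as had Rpl21 (-0.15) and BC004004 (0.01), and the other 3 pairs with opposite signs are described here by level. Gm10076, which holds the Rpl41 coding bases, had 94.3 CPM in all kept SC cells, 125 CPM in 5-day HFHS and 961 CPM in 15-day HFHS. Rpl41 had 2227 CPM in SC, 2229 CPM in 5-day HFHS and 1501 CPM in 15-day HFHS. Summed, the pair had 2322, 2354 and 2461 CPM, a log2 ratio of 0.08 between 15-day HFHS and SC, so the sum was not lower where Rpl41 was. By class the log2 ratio of Gm10076 was between 3.20 and 3.95 in all 10 classes.

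Rps27rt, whose coding bases equal those of Rps27, was lower in 15-day HFHS than in SC in all 10 classes, or in 9 with TMM scaling, while Rps27 was higher in all 10. Rps27 had 1084 CPM in all kept SC cells, 1172 CPM in 5-day HFHS and 1820 CPM in 15-day HFHS, and the summed pair had a log2 ratio of 0.70. Gm2000, with 371 of 372 coding bases of Rpl35, had 29.6, 31.5 and 17.0 CPM in the same libraries, and the pair summed to a log2 ratio of 1.22. For these 2 pairs the sum stayed close to the parent gene, since the copies were far lower in level.

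Fau, a ubiquitin-like fusion to a small-subunit protein, and Rack1, a scaffold on the small subunit, fall outside the symbol rule. In microglia-like cells Fau had a log2 ratio of 15-day HFHS to SC of 0.17 and Rack1 of 0.09. For Rpl37, Rpl37a, Rpl38, Rps21 and Rps29 of the 11 members, no 31-base word from the last 500 bases occurs in another listed gene. Up to 46.6% of their words occur in annotated genes that the matrices do not list. How reads from copies of member genes were assigned in each library was not tested.

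**Figure D5:**
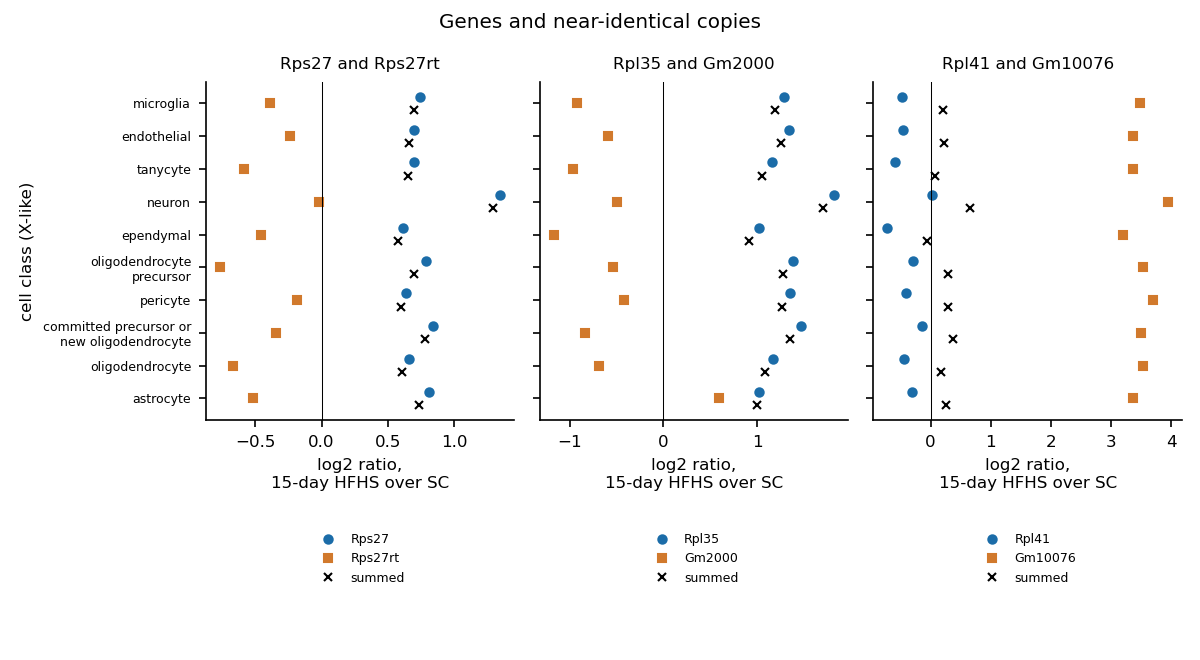
Log2 ratio of 15-day HFHS over SC by cell class for 3 genes (blue circles), their near-identical copies (orange squares) and the 2 summed (black crosses). Rpl41 lies at or below 0 except in neuron-like cells, with Gm10076 above 3, and their sum lies between -0.06 and 0.66. The other 2 parent genes lie above 0 and their copies mostly below.

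Other lists of translation genes had few calls at 15 days in all kept cells, where 8.57% of all genes were called higher and 9.4% lower. The lists held 18 further genes with TOP mRNAs, such as Eef1a1, Eef2 and Tpt1, 30 translation factors, 30 genes of ribosome assembly, 78 mitochondrial ribosomal protein genes and 18 genes of mTOR signalling. In all kept cells at 15 days, 0 of 18 TOP genes were called higher and 0 lower, with a median log2 ratio of -0.04 against 0.17 for the measured ribosomal protein members. Of translation factors 1 of 30 was called higher and 1 lower, of assembly genes 2 of 30 higher, and of mitochondrial ribosomal protein genes 1 of 77 higher. The calls of mTOR genes in all kept cells are not given here. Summed by class, mitochondrial ribosomal protein genes had a higher share of UMIs in 15-day HFHS than in SC in 9 of 10 classes, assembly genes in 7, TOP genes in 4, translation factors in 4 and mTOR genes in 1.

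More list genes were called in neuron-like cells, beside the shift in cluster mix given above. There 12 of 18 TOP genes, 10 of 30 translation factors, 6 of 27 assembly genes and 45 of 77 mitochondrial ribosomal protein genes were called higher at 15 days, while 8 of 16 mTOR genes were called lower and none higher, where 13% of all genes were called higher and 29.7% lower. At 5 days 15 of 18 TOP genes and 36 of 77 mitochondrial ribosomal protein genes were called higher in neuron-like cells, where 11.1% of all genes were. In astrocyte-like cells at 5 days 15 of 72 mitochondrial ribosomal protein genes were called higher and none lower, where 5.96% of all genes were called higher and 8.64% lower, while the cytosolic group had 1 member called.

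The TOP genes followed the ribosomal proteins in the order of classes at the ends. They made up 1.42%, 1.40% and 1.42% of UMIs in SC, 5-day HFHS and 15-day HFHS microglia-like cells, 1.22%, 1.18% and 1.14% in endothelial-like cells and 0.257%, 0.274% and 0.280% in astrocyte-like cells. The mitochondrial ribosomal proteins did so at the lowest place alone. They made up 0.302%, 0.349% and 0.329% in astrocyte-like cells, the lowest class in each library. In microglia-like cells they made up 0.387%, 0.375% and 0.402%, second from the bottom in each library. In tanycyte-like cells they made up 0.697%, 0.687% and 0.708%.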

How the data were processed

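Tissue of the arcuate nucleus was micropunched, dissociated and run on a 3′ droplet kit, 1 library per diet, per the labels' protocols. The deposited matrices hold raw counts of UMIs per gene and barcode, made by the authors with Cell Ranger on GRCm38. The file headers name software version 3.1.0, and the submitters' processing notes also list SAMtools and Scanpy 1.4.4. The gene annotation the authors used is not given in the sources used here. Every sample of the labels is used. The members and gene lists were chosen with earlier results of these data known.

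The SC, 5-day HFHS and 15-day HFHS matrices held 7116, 6204 and 7823 barcodes with 59315940, 52735770 and 43193012 UMIs. Barcodes with under 500 genes (668, 819 and 964) or over 20% mitochondrial UMIs (1459, 1222 and 1451) were removed. Likely doublets (0.8% per 1000 cells, those with the highest simulated-doublet scores) were then removed, 271, 207 and 320, since the automatic threshold marked 0, 0 and 146. The kept cells held 49426200, 43182795 and 35434774 UMIs. All deposited barcodes shared between libraries numbered 13 for 5-day HFHS and SC, 72 for 15-day HFHS and SC and 85 for 15-day and 5-day HFHS.

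Cells were scaled to 10000 UMIs, clustered on 3000 variable genes without the members, 40 principal components and 15 neighbours (Leiden resolution 1, 30 clusters, seed 0), and named for the type with at least 3 markers in a cluster's top 100 genes by fold, and most in the top 10 (ties, also at 0, by the top 100). Clusters led by another type in the top 10, with 2 markers of another type in the top 10, or with over 90% of cells from 1 library, stayed unnamed. So did a cluster of low depth with no marker of its type in the top 10. Raw UMIs were summed per class and library. Departures needed at least 20 expected UMIs. Intervals are exact and two-sided at 95% (binomial for shares, conditional binomial for ratios). No test between diets was possible with 1 library each, and no p-value is given.

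Members named in the text were the 5 with most and fewest UMIs (1 is not reported here), those with none, those that departed between classes, those with the widest diet ratios, the paralog pairs and the stalk genes with Rpsa. The genes called in all kept cells at 15 days were named after their values were seen. Copies were compared by 31-base words of the last 500 bases of GENCODE M21 transcripts, and a member was ambiguous with over 50% shared with another listed gene or with an overlapping gene on its strand. Gene IDs matched that annotation for 31107 of 31253 genes. Promoter sequences are from RefSeq. Thinning to 1000 UMIs left out shallower cells. The scripts were tested on simulated data. Alternatives covered filters, scaling, thinning, class assignment, denominators and thresholds. Tools were Scanpy 1.11.5 in Python 3.11.15, with igraph 0.11.9, scikit-image 0.26.0, SciPy 1.17.1 and Biopython 1.88, and R 4.3.3, edgeR 4.0.16 (TMM) and DESeq2 1.42.0 (size factors) for scaling factors alone.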

Additional observations from a re-analysis of the deposited data

Results flagged for a closer look

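At 5 days Rpl31 was called higher in neuron-like cells (log2 ratio of 5-day HFHS to SC 0.45) and lower in pericyte-like cells (-0.48), and this difference between classes was not tested. At 15 days Rpl7a was called higher in neuron-like cells (log2 ratio of 15-day HFHS to SC 0.55) and lower in pericyte-like cells (-0.41), a difference that was likewise not tested. Rps28, a small-subunit protein, was called higher in neuron-like cells (0.38) and lower in 5 classes at 15 days, most in ependymal-like cells (-0.51), also without a test of the difference. In neuron-like cells the whole group was higher in both HFHS libraries, beside the change in cluster mix given above.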

How the results depend on the processing

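Each diet is 1 library of a pool of mice, so class differences have 3 libraries behind them and diet differences none, and all intervals cover counting error only. Microglia-like and endothelial-like cells had the highest shares and astrocyte-like and oligodendrocyte-like cells the lowest under all 11 settings tried for the order. Where a value moved, the cause was not tested.

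With cells classed one by one, mean shares were 4.09% (astrocyte-like), 8.82% (tanycyte-like), 7.52% (ependymal-like), 4.56% (oligodendrocyte-like) and 7.04% (committed precursor or new oligodendrocyte-like). Without mitochondrial UMIs in the total they were 2.27% (astrocyte-like), 9.02% (tanycyte-like), 7.43% (ependymal-like) and 4.45% (oligodendrocyte-like), and without ambiguous members 7.91% (tanycyte-like), 6.61% (ependymal-like) and 3.97% (oligodendrocyte-like). Ependymal-like cells had 7.15% with at most 10% mitochondrial UMIs, 6.81% with at least 1000 genes, 8.54% thinned to 1000 UMIs and 8.64% with every cell weighted equally. Neuron-like cells had 9.99% with at most 10% mitochondrial UMIs. Over all deposited barcodes the group had 6.70% in SC, 6.76% in 5-day HFHS and 7.89% in 15-day HFHS, and with classes weighted as in SC 7.55% in 5-day HFHS and 8.48% in 15-day HFHS.

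The 2 departures above the mean became 11 at 1.5-fold, 4 against the median of the classes, and 1 with thinned cells or with cells classed one by one. The 7 below became 21 at 1.5-fold. All 9 were kept with any library left out. A call needs every library used, so leaving a library out could not remove a call, and this is no check.

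Outside neuron-like cells, the 2 calls of higher level at 5 days became 6 with TMM scaling, 4 with DESeq2 size factors or clusters weighted as in SC, 9 with thinned cells, 5 with doublets kept, 1 without the 11 members called widely at 15 days (chosen after seeing the data) and 0 at a ratio of 1.5. The 1 call of lower level became 13 with thinned cells and 0 at a ratio of 1.5. At 15 days the 158 higher calls became 62 at a ratio of 1.5 and 62 without the 11 members, and the 19 lower calls 5 at a ratio of 1.5. In neuron-like cells clusters weighted as in SC left 22 higher calls at 5 days and 42 at 15 days. No paired analysis was possible because each diet has 1 library.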
